A study of Mus musculus with 8 samples.

Results

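The 8 genes described here, Hmgcs1, Idi1, Fdft1, Sqle, Lss, Cyp51, Dhcr7 and Insig1, belong to sterol synthesis under the control of the SREBP transcription factors. They were listed by symbol and matched to Ensembl identifiers in a deposited table of 53379 genes, in which all 8 were found. The table holds raw read counts from the cingulate cortex of 8 male mice: 4 wild type (WT) and 4 homozygous for a gene trap in Mvp (Mvp KO). Mvp encodes the major vault protein, and the trap places a β-galactosidase/neomycin cassette with a splice acceptor and a polyadenylation signal in the first intron of the gene, on a C57BL/6 background. Neither group was treated, the labels name no other allele, and the age of these mice is not given in the sources used here. The comparison asks what the loss of Mvp does to gene expression in this region, and the genes were also related to Mbp, which encodes a major protein of myelin, over the 8 samples.

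Cells make cholesterol from acetyl-CoA. When membrane sterol is scarce, the carrier protein SCAP brings SREBP2 from the endoplasmic reticulum to the Golgi, where proteases release a fragment that enters the nucleus and switches on the genes of the pathway. INSIG1 holds SCAP in the endoplasmic reticulum when sterol is plentiful, and its own gene is a target of SREBP, so that the system damps itself. The brain makes its own cholesterol because lipoproteins of the blood do not cross the blood-brain barrier. In the adult brain most of this cholesterol lies in myelin, the membrane that oligodendrocytes wrap around axons, while neurons and astrocytes also run the pathway.

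Promoters are shown because SREBP works there together with the factors NF-Y, which binds CCAAT boxes, and SP1, which binds GC boxes. RefSeq promoter sequences of build GRCm38.p6 matched 6 of the 8 genes, and Sqle and Fdft1 had no entry. Both strands of the 250 bases before each start were searched for TCACNCCAC (a form of the sterol regulatory element), CCAAT and GGGCGG, none of which overlaps another in the windows shown. Hmgcs1, Cyp51 and Insig1 are printed as genes that were highest in the same WT sample, and Lss as a gene that was not (values below), each 5′ to 3′ on the strand of the gene with the matches in capitals.
Hmgcs1 (chr13:119690101-119690350, plus strand): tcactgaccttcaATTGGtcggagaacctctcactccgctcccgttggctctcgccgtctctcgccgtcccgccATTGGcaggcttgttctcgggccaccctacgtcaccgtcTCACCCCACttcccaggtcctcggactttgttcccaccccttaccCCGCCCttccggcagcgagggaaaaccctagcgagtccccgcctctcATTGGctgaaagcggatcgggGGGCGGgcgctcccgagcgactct
Cyp51 (chr5:4104698-4104947, minus strand): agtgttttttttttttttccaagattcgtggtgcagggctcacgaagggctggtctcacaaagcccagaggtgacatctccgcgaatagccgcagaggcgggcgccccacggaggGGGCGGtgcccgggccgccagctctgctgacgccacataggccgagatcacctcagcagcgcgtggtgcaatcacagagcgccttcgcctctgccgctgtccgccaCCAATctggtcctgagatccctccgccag
Insig1 (chr5:28071162-28071411, plus strand): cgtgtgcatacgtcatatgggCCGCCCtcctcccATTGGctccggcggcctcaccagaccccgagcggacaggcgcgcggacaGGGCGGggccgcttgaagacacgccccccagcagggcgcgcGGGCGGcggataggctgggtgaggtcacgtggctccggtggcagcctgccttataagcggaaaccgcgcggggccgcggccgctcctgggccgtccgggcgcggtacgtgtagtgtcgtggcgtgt
Lss (chr10:76531355-76531604, plus strand): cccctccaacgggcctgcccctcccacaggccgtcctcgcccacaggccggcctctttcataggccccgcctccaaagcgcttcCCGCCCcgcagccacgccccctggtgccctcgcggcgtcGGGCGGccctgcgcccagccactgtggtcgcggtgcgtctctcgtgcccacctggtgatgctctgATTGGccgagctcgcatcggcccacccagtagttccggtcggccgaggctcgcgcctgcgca

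Of the 6 matched genes, only Hmgcs1 held TCACNCCAC, as the run TCACCCCAC with its first base at position -137 from the start. This motif was found in 1.05% of all 32851 promoter windows of the same length. A CCAAT box was found in at least 1 window of each of the 6 matched genes, and so was GGGCGG. Counted by window, 6 of their 8 windows held CCAAT and 7 held GGGCGG, against 33.8% and 32.7% of all windows. Hmgcs1 had 3 CCAAT boxes, at -237, -176 and -45. Cyp51, Insig1 and Lss had 1 each, at -29, -216 and -62. Idi1 had 2, at -45 and -14, and Dhcr7 had 2 in 1 of its windows, at -85 and -49. Dhcr7 has 3 annotated starts, so its matches are drawn from 3 windows. These are matches of letters and not measured sites.

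The samples held between 28456504 and 42854368 counts, and 16914 genes passed the filter on low counts, all 8 genes among them. The unit of expression level is CPM, in which TMM factors correct the library totals. Mvp itself was lower in the Mvp KO samples, at 1.45, 1.44, 2.13 and 1.51 CPM in replicates 1 to 4, than in WT, at 6.81, 7.12, 7.89 and 5.49 CPM (log2 fold change -2.06 ± 0.19 SE, edgeR quasi-likelihood test, adjusted p = 0.0162). WT replicate 4 stood apart: a principal component analysis placed it at 71.5 on the leading axis (46.0% of the variance), and the remaining 7 samples between -20.4 and -2.78. All 10 listed neuronal activity genes were highest in this sample, where 29.2% of all tested genes were. These 10 had a median of 3.62 times the median of the other 7 samples. Its Bdnf, which encodes a secreted neurotrophin, was at 599.5 CPM against 43.4 to 86.9 CPM elsewhere. In bulk tissue, a change in the number of cells of a type and a change in RNA per cell cannot be told apart. The replicates are described in the study as biological, and values without WT replicate 4 are given beside the results that it moved.

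WT replicate 4 lay above the other samples for most of the 8 genes. For Hmgcs1, Sqle and Fdft1 the other 7 samples lay close together irrespective of genotype (coefficients of variation of 3.13%, 7.66% and 8.53%), while Cyp51, Idi1 and Insig1 spread more (12.7%, 20.7% and 21.0%). WT replicate 4 was the highest sample for 6 of the 8 genes (Hmgcs1, Idi1, Fdft1, Sqle, Cyp51 and Insig1), while 29.2% of all tested genes were highest in it. The same 6 genes were at least 1.2 times the median of the other 7 samples, against 23.9% of all tested genes. Lss and Dhcr7 were the other two, at 1.01 and 1.03 times that median.

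The first enzyme in the group, Hmgcs1, which condenses acetyl-CoA and acetoacetyl-CoA to HMG-CoA, was the most abundant. It was measured at 462, 445.0, 459 and 1019 CPM in WT replicates 1 to 4 and at 459.5, 443.5, 454 and 422 CPM in Mvp KO replicates 1 to 4. WT replicate 4 was 2.24 times the median of the other 7 samples, and those 7 lay between 422 and 462 CPM. Idi1, which interconverts the 5-carbon building blocks of the pathway, was rare in these counts, at 2.12, 2.35, 1.56 and 3.27 CPM in WT and 2.62, 2.52, 2.26 and 1.51 CPM in Mvp KO. The groups of both genes overlapped, and with 43 to 105 counts per sample Idi1 has the largest counting error of the 8.

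Fdft1 and Sqle act next to each other. Fdft1 is squalene synthase, the first enzyme committed to sterols, and was at 74.9, 70.3, 78.3 and 115 CPM in WT and 80.7, 69.3, 81.9 and 65.1 CPM in Mvp KO. Sqle, the squalene epoxidase and a rate-controlling enzyme of the pathway, was at 99.8, 86.5, 88.4 and 165 CPM in WT and 99.3, 82.3, 88.7 and 84.8 CPM in Mvp KO. WT replicate 4 was 1.54 times the median of the other samples for Fdft1 and 1.86 times for Sqle. With or without it, the ranges of the genotypes overlapped for both genes. Lss follows them: lanosterol synthase closes the ring system. Its values were nearly flat, at 53.6, 52.2, 49.5 and 52.6 CPM in WT and 58.4, 52.2, 53.9 and 50.3 CPM in Mvp KO, a ratio of 1.18 between the highest and the lowest sample.

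Cyp51, the demethylase that acts on lanosterol, was at 108, 122, 94.9 and 152 CPM in WT and 122.5, 92.7, 95.4 and 95.4 CPM in Mvp KO. Here Mvp KO replicate 1 and WT replicate 2 also lay above the remaining 5 samples. Dhcr7, whose enzyme carries out the last reduction to cholesterol, was at 34.1, 37.8, 31.9 and 32.7 CPM in WT and 31.8, 31.3, 29.4 and 29.2 CPM in Mvp KO. Its lowest WT sample was just above its highest Mvp KO sample, so that its groups did not overlap. This held for 1 of the 8 genes and for 1.52% of all tested genes. Insig1, the regulator, was at 56.9, 76.8, 51.7 and 103 CPM in WT and 73.2, 75.4, 52.8 and 45.7 CPM in Mvp KO, with overlapping groups.

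**Figure D1:**
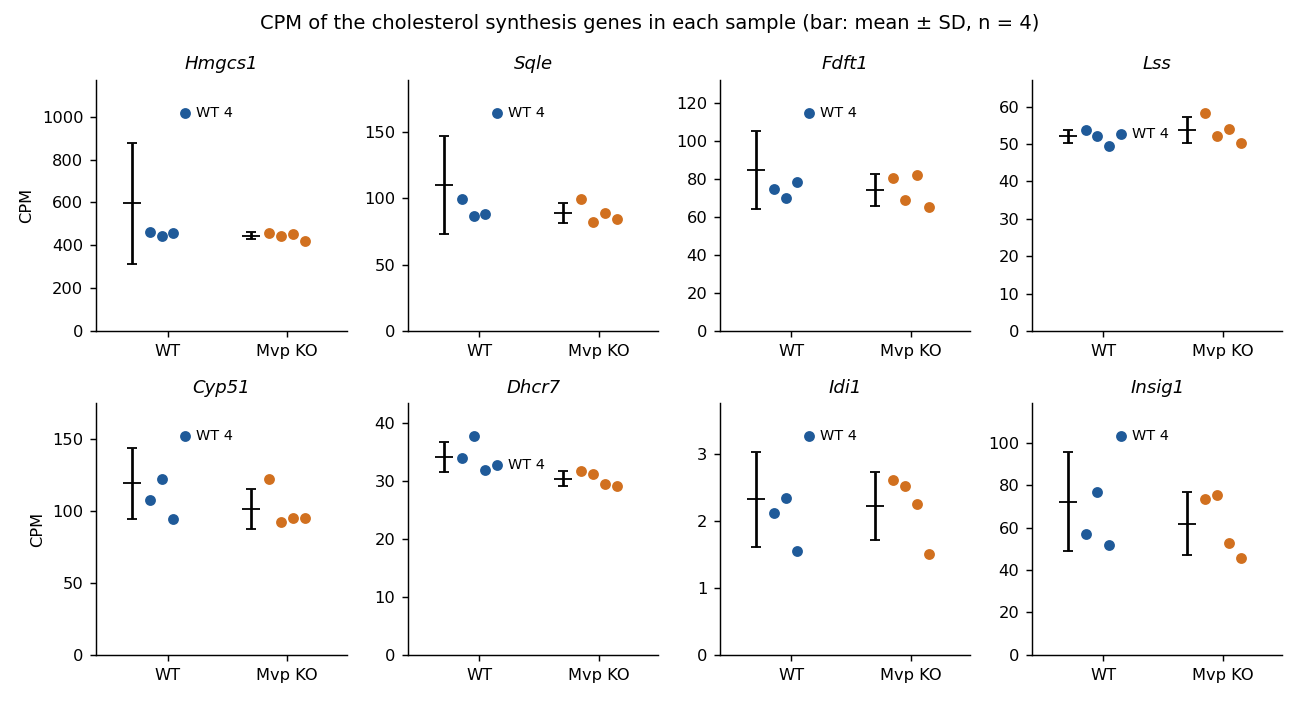
CPM (y axis, from 0) of each of the 8 genes in the 4 WT samples (blue) and the 4 Mvp KO samples (orange), with the mean and SD of each group (n = 4) as a black bar. WT replicate 4 is labelled: it is the highest point for 6 genes, up to 1019 CPM for Hmgcs1, and lies among the others for Lss and Dhcr7.

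Levels can be set beside each other between genes only per length, so CPM was divided by the exonic length of each gene in kb (all annotated exons joined). In Mvp KO the order was Hmgcs1 at 96.8 ± 3.63 CPM per kb, Cyp51 at 23.0 ± 3.19, Insig1 at 19.98 ± 4.79, Fdft1 at 17.6 ± 1.97, Sqle at 16.0 ± 1.35, Dhcr7 at 5.23 ± 0.224, Lss at 4.98 ± 0.320 and Idi1 at 0.636 ± 0.144 (mean ± SD, n = 4). The neighbours from Cyp51 to Sqle lay within their spread, and so did Dhcr7 and Lss. Hmgcs1 stood clear above the group and Idi1 clear below it. The order of the means was the same in WT, where Hmgcs1 was at 129.8 ± 61.4 CPM per kb. The joined exons count 10787 bases for Lss, and a gene whose longer annotated transcripts are not made reads low on this scale.

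No difference between the genotypes passed the test in any of the 8 genes. By edgeR's quasi-likelihood test 0 of the 8 passed an adjusted p of 0.05, where 0.00591% of all tested genes did (Mvp alone), and 0 of the 8 had an unadjusted p under 0.05, where 1.56% did. DESeq2's Wald test and limma voom also called 0 of the 8. Of the log2 fold changes (Mvp KO over WT) 7 were below 0 and their median over the 8 genes was -0.20, beside a median of -0.00 over all tested genes. WT replicate 4 carried most of this: without it the median was -0.015 and 5 of the 8 were below 0.

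Hmgcs1 had the lowest value, with means of 596 ± 282 CPM in WT and 445 ± 16.7 CPM in Mvp KO (SD, n = 4). Its log2 fold change was -0.42 ± 0.26 (SE, 95% interval -0.9997 to 0.15, edgeR adjusted p = 0.969) and, without WT replicate 4, -0.03 (-0.16 to 0.10). The narrower interval describes the remaining 7 samples only. WT replicate 4 was set aside for its own high values, so this interval is no bound on the difference of Hmgcs1 over all 8 samples. Sqle changed in the same way, from -0.31 (-0.75 to 0.13) to -0.04 (-0.22 to 0.14). Cyp51 was at -0.23 (-0.57 to 0.10), Insig1 at -0.22 (-0.76 to 0.31), Fdft1 at -0.19 (-0.54 to 0.16), Idi1 at -0.05 (-0.64 to 0.53) and Lss at 0.05 (-0.10 to 0.20). Without WT replicate 4 Cyp51 was at -0.09 (-0.35 to 0.17), Fdft1 at -0.00037 (-0.20 to 0.20) and Lss at 0.06, and the values of Idi1 and Insig1 turned to 0.16 and 0.0028.

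Dhcr7, like Lss, moved little when WT replicate 4 was left out. Means were 34.1 ± 2.59 CPM in WT and 30.4 ± 1.30 CPM in Mvp KO, which gave a log2 fold change of -0.17 ± 0.08 (SE, 95% interval -0.34 to 0.0027, edgeR unadjusted p = 0.0531, adjusted p = 0.969). Without WT replicate 4 it was -0.18 (-0.35 to -0.02) with an unadjusted p of 0.0338 and an adjusted p of 0.9999 by edgeR. Dhcr7 was then the 1 gene of the 8 with an unadjusted p under 0.05, where 1.34% of all tested genes had one.

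**Figure D2:**
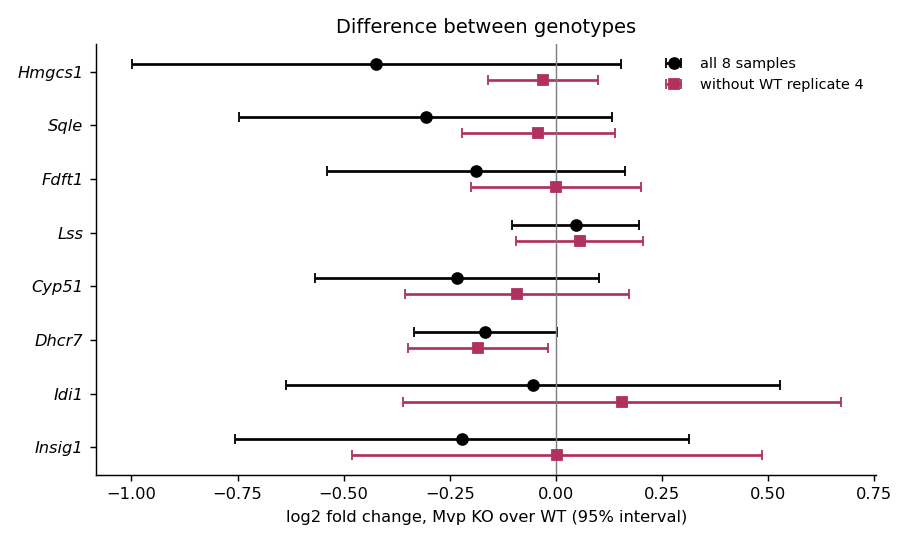
Log2 fold change of Mvp KO over WT (x axis) for each gene (y axis), with its 95% interval from edgeR, over all 8 samples (black circles) and without WT replicate 4 (red squares). Without that sample the estimates of Hmgcs1, Sqle and Fdft1 move to near 0 and their intervals narrow, and Dhcr7 stays near -0.18.

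The rest of the pathway gave similar values. Of the 13 other sterol synthesis genes 0 passed an adjusted p of 0.05 and 0 an unadjusted p under 0.05 (edgeR). Their median log2 fold change was -0.15, and -0.01 without WT replicate 4. Their values ranged from -0.57 for Mvd, the decarboxylase that makes isopentenyl diphosphate (adjusted p = 0.969), to 0.10 for Tm7sf2, a sterol reductase (adjusted p = 0.969), and were -0.15 and 0.04 for these genes without WT replicate 4. WT replicate 4 was the highest sample for 11 of these 13, and for 29.2% of all tested genes. Mvd was at 44.8 CPM in it and at 14.98 to 21.2 CPM in the others, and Hsd17b7, a ketoreductase of the late pathway, at 95.1 CPM against 41.0 to 51.9 CPM. Over the 21 genes together the summed level was 2960 CPM in WT replicate 4 and between 1563 and 1789 CPM in the others. Tm7sf2 was the exception in direction, at 18.0 CPM in WT replicate 4 and 19.8 to 23.8 CPM in the others.

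The genes that control and supply the pathway were mixed. Of the 9 listed (SREBP control and sterol uptake), 0 passed an adjusted or an unadjusted p of 0.05 between the genotypes, with a median log2 fold change of -0.06 (-0.00091 without WT replicate 4). WT replicate 4 was highest for 4 of these 9 genes, and for 29.2% of all tested genes. Stard4, a cytosolic sterol carrier, was at 131 CPM in that sample and 53.6 to 62.4 CPM in the others. Srebf2, which encodes SREBP2, was at 281 CPM against 199.9 to 241 CPM. Insig2, the relative of Insig1, was at 55.6 CPM within a range of 55.4 to 61.2 CPM, and Scap at 90.1 CPM within 79.6 to 90.8 CPM.

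WT replicate 4 differed in cell type markers as well. Of all tested genes 29.2% were highest in it, and of the 12 myelin genes 0 were. The summed level of the myelin genes was 1014 CPM there, 1096 to 4106 CPM in the others. The 8 neuronal markers summed to 13267 CPM in it and 10071 to 11949 CPM in the others, with 7 of 8 highest in it, and Camk2a, a kinase of excitatory neurons, was lowest in it. The TMM factor of WT replicate 4 was 0.907, against 0.994 to 1.05 in the others, which raises its CPM relative to library totals. Over all tested genes its CPM summed to 1.10e+06, against 9.52e+05 to 1.01e+06 in the others. The 8 astrocyte markers summed to 5654 CPM within a range of 4887 to 6020 CPM elsewhere. Precursor markers summed to 139.9 CPM (123 to 149.6 CPM elsewhere), microglial markers to 386 CPM (345 to 392 CPM) and endothelial markers to 173 CPM (178 to 255 CPM). The neuronal activity genes summed to 3856 CPM against 679 to 1537 CPM. The part of these differences in the level of the 8 genes was not tested.

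**Figure D3:**
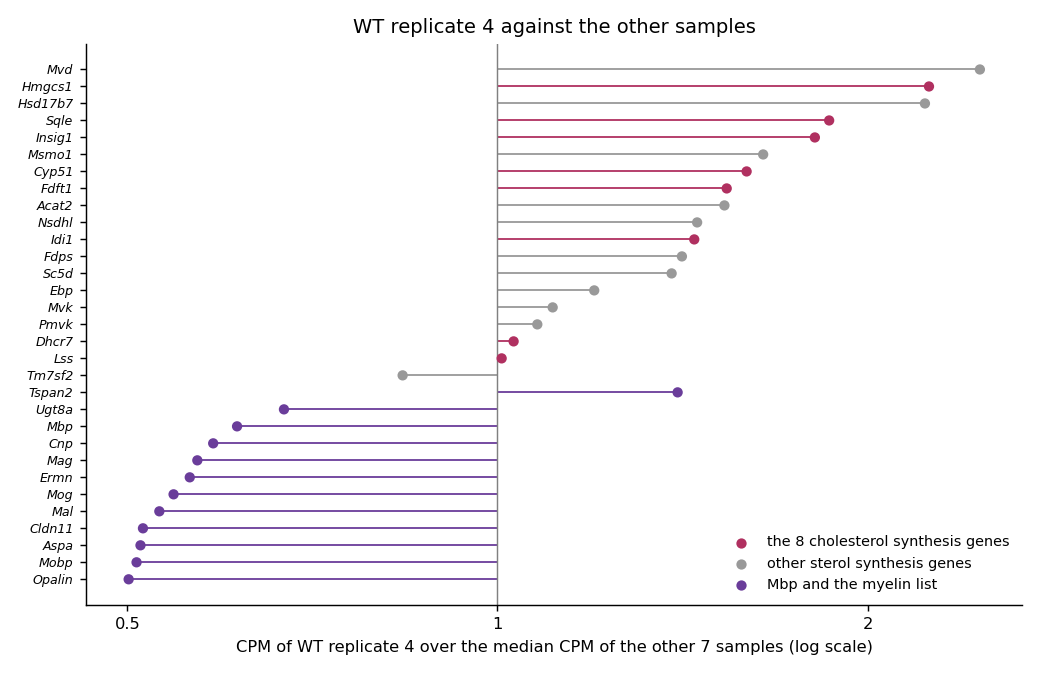
CPM of WT replicate 4 divided by the median CPM of the other 7 samples (x axis, log scale) for the 8 genes (red), 11 other sterol synthesis genes (grey), and Mbp with 11 genes of the myelin list (purple). The sterol genes run up to 2.47 for Mvd and 2.24 for Hmgcs1 with Lss and Dhcr7 near 1, and all of the purple genes other than Tspan2 lie below 1.

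Mbp varied far more between samples than the 8 genes did. It was at 711, 879, 1143 and 540.0 CPM in WT and at 2219, 1532, 811 and 642 CPM in Mvp KO, a ratio of 4.11 between the highest and the lowest sample. Mvp KO replicates 1 and 2 were the highest, WT replicate 4 was the lowest, and the genotypes overlapped (log2 fold change 0.67, 95% interval -0.20 to 1.53, edgeR adjusted p = 0.969). The other myelin genes followed Mbp: all 12 had an exact p under 0.05 for their correlation with it, against 15.7% of all genes, and the median r was 0.98. Tspan2 followed it least, with r = 0.74 (exact permutation p = 0.0367). Its r was 0.99 without WT replicate 4 (exact permutation p = 0.0004) and 0.53 without Mvp KO replicate 1 (exact permutation p = 0.227). Without the 2 samples farthest from the median of Mbp it was 0.06 (exact permutation p = 0.911).

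None of the 8 genes was correlated with Mbp past the test. Pearson's r of log2 CPM over the 8 samples was tested over every pairing of the samples (exact permutation test, two-sided) for each of 16913 genes, and adjusted over all of them. An exact p under 0.05 was found for 0 of the 8, while 15.7% of all genes had one, and an adjusted p under 0.05 for 0 of the 8, against 0.372% of all genes. The median r was -0.13 over the 8 genes and 0.07 over all genes.

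By role, the early enzymes lay on both sides of 0. Hmgcs1 had r = -0.45 (exact p = 0.236, adjusted p = 0.525; Spearman's rho = -0.19, exact p = 0.665) and Idi1 r = 0.08 (exact p = 0.847; rho = 0.19). Fdft1 had r = -0.28 (exact p = 0.496) with rho = -0.12, and Sqle r = -0.41 (exact p = 0.301) with rho = -0.36. Lss had the highest r, 0.49 (exact p = 0.220, adjusted p = 0.507), and a rho of 0.10. Cyp51 had r = -0.21 (exact p = 0.611) and rho = -0.29, and Dhcr7 r = -0.05 (exact p = 0.915) and rho = -0.05. Insig1 had r = 0.07 (exact p = 0.859) and rho = 0.02.

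These values depended on single samples. Without WT replicate 4, lowest in Mbp, r was positive for 7 of the 8 genes, with 0.38 for Hmgcs1, 0.18 for Sqle, 0.37 for Fdft1, 0.28 for Cyp51, 0.55 for Idi1 and 0.65 for Insig1 (exact permutation p between 0.114 and 0.982 over the 8). The median r in this setting was 0.37 over the 8 genes and 0.03 over all genes. Again 0 of the 8 had an exact p under 0.05, where 14.8% of all genes did. Without Mvp KO replicate 1, highest in Mbp, Lss turned from 0.49 to -0.34. Without both samples farthest from the median of Mbp (Mvp KO replicates 1 and 2) r lay between -0.66 for Sqle and 0.16 for Dhcr7, with exact permutation p values of 0.204 or more. With the mean of the myelin list in place of Mbp 0 of the 8 had an exact p under 0.05.

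**Figure D4:**
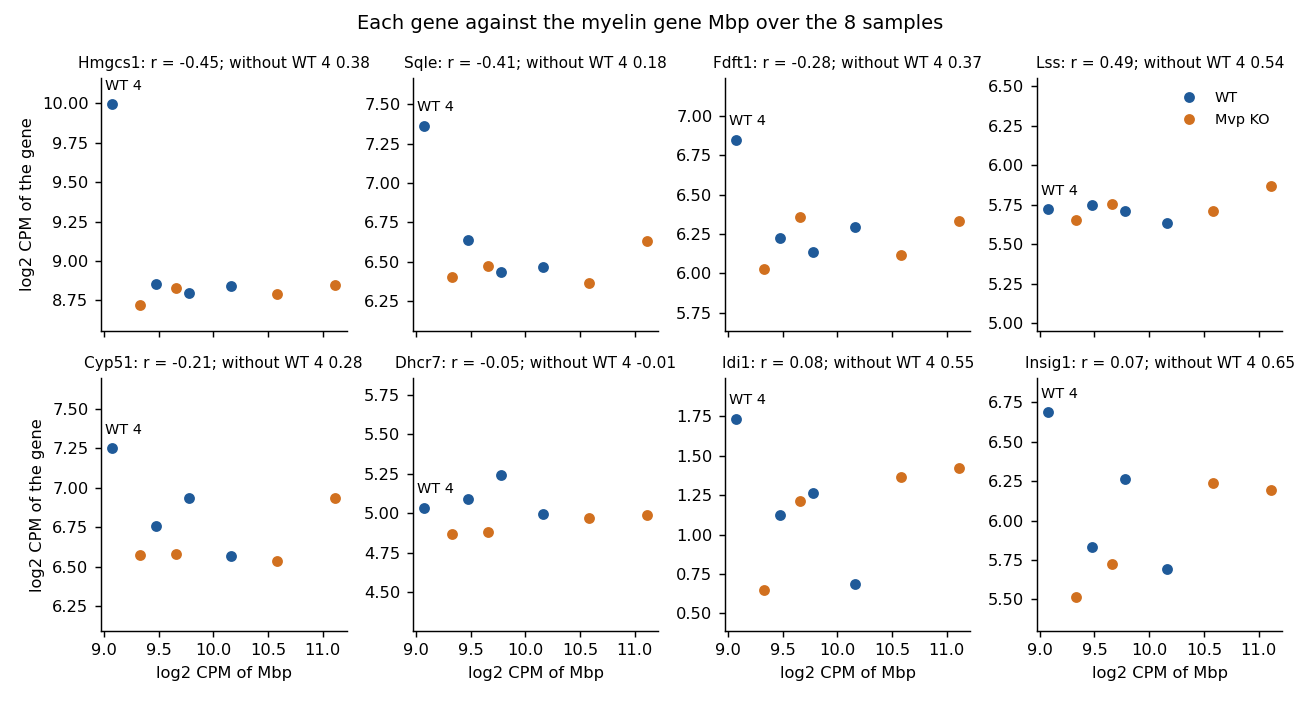
Log2 CPM of each gene (y axes, each spanning the same 1.6 log2 units) against log2 CPM of Mbp (x axes) in the 4 WT samples (blue) and the 4 Mvp KO samples (orange), with Pearson's r over all 8 samples and without the labelled WT replicate 4. For Hmgcs1, r goes from -0.45 to 0.38 when that sample is left out, and the remaining points lie on a nearly level line.

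Among the other sterol genes, relations to Mbp past an exact p of 0.05 were few. Of the 13 other sterol synthesis genes 1 had an exact p under 0.05, Tm7sf2 with r = 0.92 (exact p = 0.0012, adjusted p = 0.1002; r = 0.96 without WT replicate 4), where 15.7% of all genes did. Of the 9 genes of SREBP control and sterol uptake 3 had an exact p under 0.05, all negative, among them Scap with r = -0.82 (exact p = 0.0119) and Srebf2 with -0.71 (exact p = 0.0430). Without WT replicate 4, 1 of the 9 had one: Scap was at -0.77 (exact permutation p = 0.0486) and Srebf2 at -0.64 (exact permutation p = 0.124). Srebf2 also lost it without WT replicate 3 or any 1 of the Mvp KO samples, and Scap without the 2 samples farthest from the median of Mbp (r = -0.60, exact permutation p = 0.210). The highest of that list was Insig2 with r = 0.32 (exact p = 0.432), a value that moved with single samples. Its r was 0.95 without Mvp KO replicate 1 (exact permutation p = 0.0012) and 0.0037 without Mvp KO replicate 2 (exact permutation p = 0.995). By Pearson's r over the 8 samples, none of these passed after adjustment over all genes. By Spearman's rho, Tm7sf2 did (rho = 1, exact permutation p = 4.96e-05, adjusted p = 0.0399).

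Among themselves the 8 genes were positively related, and WT replicate 4 entered each value. All 28 pairwise r were above 0, from 0.02 for Hmgcs1 and Lss to 0.97 for Hmgcs1 and Sqle, with a median of 0.63. Without WT replicate 4, 27 of the 28 were above 0, with a median of 0.48. Hmgcs1 and Sqle were then at 0.69 and Hmgcs1 and Fdft1 at 0.85, and Sqle and Fdft1 went from 0.93 to 0.59. Hmgcs1 and Lss rose from 0.02 to 0.48. Idi1 and Insig1 had r = 0.90, and 0.84 without WT replicate 4: both were lowest in Mvp KO replicate 4 and WT replicate 3. Dhcr7 had low values with Hmgcs1 (0.12), Fdft1 (0.04) and Lss (0.05), which were 0.30, -0.09 and 0.05 without WT replicate 4. These are descriptions of 8 samples that share libraries and scaling, and the points are set far apart by 1 sample.

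The 10 other genes most like the mean log2 CPM of the 8, among 11546 genes with a mean of at least 5 CPM, were Txndc5, Stk38l, Slc22a5, Adpgk, Praf2, Msmo1, Arfgap3, Fgfr1op, Vdac3 and Supt3. Their r with that mean lay between 0.97 and 0.99 over the 8 samples and between 0.87 and 0.96 without WT replicate 4. Msmo1, the sterol C4-methyl oxidase, is the only one of them from the pathway. It was at 214 CPM in WT replicate 4 and at 121 to 154 CPM in the others. Txndc5, a disulfide isomerase of the endoplasmic reticulum, was first in this order, at 66.6 CPM in WT replicate 4 and 50.0 to 56.9 CPM elsewhere. Slc22a5, a carnitine transporter, was at 16.4 CPM against 9.62 to 12.7 CPM, and Arfgap3, a regulator of Golgi traffic, at 30.8 CPM against 16.0 to 21.95 CPM. None of the 10 passed the test between the genotypes (edgeR adjusted p = 0.969 for each).

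By position in GRCm38, the 8 genes lie apart from each other: Hmgcs1 at chr13:119690379-119708260, Idi1 at chr13:8885501-8892451, Fdft1 at chr14:63145150-63179578, Sqle at chr15:59315077-59331192, Lss at chr10:76531588-76557138, Cyp51 at chr5:4081145-4104746, Dhcr7 at chr7:143823145-143848410 and Insig1 at chr5:28071363-28078662. None shares exonic bases with another gene on its own strand. On the opposite strand 18.3% of the exonic bases of Fdft1 lie across from exons of Ctsb, 12.1% of those of Hmgcs1 across from Gm48342 and 9.22% of those of Idi1 across from Gm48574. The libraries were stranded, but the strand setting of the counting is not given in the sources used here, so counts of these overlaps are uncertain.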

How the data were processed

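Polyadenylated RNA of the cingulate cortex was sequenced in 4 WT and 4 Mvp KO samples. The authors trimmed reads with cutadapt 1.10, removed ribosomal reads with bowtie 2.2.8, mapped the rest to mm10 with STAR 2.5.3a and counted them per Ensembl gene with htseq-count 0.6.1p1, and the deposited values are raw counts. All 8 columns were used. Symbols and positions are from GENCODE vM21 (GRCm38). In R 4.3.3, edgeR 4.0.16 was run with filterByExpr (minimum count 10), TMM, robust quasi-likelihood fits and genotype as the single term, with Benjamini-Hochberg adjustment over all genes tested. Log2 CPM used a prior count of 2. Alternatives used DESeq2 1.42.0 and limma 3.58.1. Fits and correlations were tested on simulated data. Correlations and figures used Python with SciPy and matplotlib, and the p values of correlations came from exact permutation of the samples.

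The 8 genes and all lists were chosen with earlier results of these data known. Named genes were Mvp, Mbp, the 8 genes, listed genes (sterol synthesis, SREBP control, fatty acid synthesis, sterol efflux, markers of myelin, oligodendrocyte precursors, astrocytes, neurons, microglia, endothelial cells and neuronal activity) and the 10 genes most like the mean of the 8. Some items under this rule are not reported here. Within each list, examples are the highest and lowest values; genes named beyond these for their level in WT replicate 4 or their p were chosen after their values were seen. With 28456504 to 42854368 counts a sample, counting error is small for these genes other than Idi1, for which it is largest.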

Additional observations from a re-analysis of the deposited data

Results flagged for a closer look

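For groups of 4, a sample was singled out where its gap to the nearest of the others, divided by the range of the group, was above Dixon's 95% critical value. This was asked of the totals, Mvp, Mbp, the mean of the 8 genes, each of the 8 and 11 other sterol synthesis genes, 46 groups in all, of which chance would single out about 2.3. There were 10, and 6 of them were WT replicate 4. The groups share libraries and most are genes of the same pathway, so the flags are not independent. Those 6 are the same library seen in several genes and cannot be set against that number as separate events.

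In WT, replicate 4 was singled out for Hmgcs1 with a ratio of 0.970 (1019 CPM against 445.0 to 462 CPM), Nsdhl with 0.892 (43.6 CPM against 29.7 to 31.2 CPM), Mvd with 0.884 (44.8 CPM against 18.1 to 21.2 CPM), Acat2 with 0.85 (37.3 CPM against 23.4 to 25.5 CPM), Ebp with 0.840 (18.3 CPM against 14.8 to 15.4 CPM) and Sqle with 0.830 (165 CPM against 86.5 to 99.8 CPM). All 6 of these values were high. The total count of WT replicate 2 had a ratio of 0.857, at 42854368 counts.

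In Mvp KO, replicate 1 was singled out as high for Cyp51 with a ratio of 0.909 (122.5 CPM against 92.7 to 95.4 CPM). Replicate 2 was low for Mvk, the mevalonate kinase, with 0.846 (14.7 CPM against 16.7 to 17.1 CPM). Replicate 3 was high for Mvp with 0.903 (2.13 CPM against 1.44 to 1.51 CPM). The causes were not tested.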

How the results depend on the processing

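Under every alternative fit to the genotypes, 0 of the 8 genes passed an adjusted p of 0.05 (leaving out each sample in turn: 0 to 0). Over all genes, 1 gene was called, 2 by DESeq2's Wald test, 2 by limma voom with sample quality weights, and 0 to 1 when each sample was left out (1 without WT replicate 4 or Mvp KO replicate 3). Same-numbered samples of the genotypes deviated with correlations of only -0.0067 to 0.287, and not every sample correlated best with its own number, so they were not taken as pairs. With the replicate block 0 genes were called, none of the 8 among them. Idi1's log2 fold change reversed to 0.19 in limma voom and ranged from -0.21 to 0.16 with samples left out, Insig1's from -0.36 to 0.0028, and the median of the 8 from -0.28 to -0.015 (-0.07 in limma voom). The settings without WT replicate 4 for the median, the lists and the pairs were added after seeing the data. The count of genes correlated with Mbp at an exact p under 0.05 was 2659, 1760 to 2765 with a sample left out, and 1057 without the 2 samples farthest from the median of Mbp, where fewer samples enter. With library totals alone 1 of the 8 passed (Lss, r = 0.75, exact permutation p = 0.0324), and 0 of the 8 under the other settings (left-out samples: 0 to 0). Of 136 values of r under alternatives, 22 reversed. With a sample left out r ranged from -0.57 to 0.38 for Hmgcs1, -0.63 to 0.18 for Sqle, -0.50 to 0.37 for Fdft1, -0.34 to 0.62 for Lss, -0.61 to 0.28 for Cyp51, -0.16 to 0.55 for Idi1 and -0.13 to 0.65 for Insig1. With the replicate block r was 0.23 for Hmgcs1, 0.20 for Sqle, 0.24 for Fdft1 and 0.28 for Cyp51. Without the 2 samples farthest from the median of Mbp it was -0.39 for Lss, 0.16 for Dhcr7, -0.53 for Idi1 and -0.43 for Insig1. Dhcr7 was at 0.31 with library totals alone, 0.44 centred within genotype and 0.042 with the myelin list in place of Mbp. Apart from leaving out samples, the cause of these reversals was not tested. With 4 samples a group, the spread between samples and not depth limits the comparison, other than for Idi1 with its low counts.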

Other observations

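Fatty acid synthesis, which SREBP1 controls, gave 0 of 10 genes with an adjusted or unadjusted p under 0.05 between the genotypes (edgeR), with a median log2 fold change of -0.11, from -0.18 for Me1, the malic enzyme, to 0.09 for Acaca, an acetyl-CoA carboxylase. WT replicate 4 was highest for 8 of these 10, and for 29.2% of all tested genes. Without that sample the median was -0.0086 and Me1 was at -0.0076. Of the 10, 5 had an exact p under 0.05 for r with Mbp over the 8 samples, against 15.7% of all genes, and none an adjusted one. Fads2, a fatty acid desaturase, was lowest with r = -0.82 (exact p = 0.0120) and Acaca highest with r = 0.86 (exact p = 0.0089). Both lost this without Mvp KO replicate 1 (Acaca also without Mvp KO replicate 2), with r = -0.75 (exact permutation p = 0.0548) and 0.55 (exact permutation p = 0.195), and without the 2 samples farthest from the median of Mbp they were at -0.49 and 0.23.

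Of the 12 genes of sterol efflux, storage and turnover, 0 passed an adjusted or unadjusted p of 0.05 between the genotypes (edgeR, median log2 fold change -0.07, from -0.19 for Cyp46a1, the neuronal cholesterol 24-hydroxylase, to 0.28 for Ch25h, which makes 25-hydroxycholesterol). The median was -0.04 without WT replicate 4, and these genes were at -0.05 and 0.16. Of the 12, 4 had an exact p under 0.05 for r with Mbp, against 15.7% of all genes: Npc1, a transporter that moves cholesterol out of lysosomes, with r = 0.91 (exact p = 0.0015, adjusted p = 0.109), its partner Npc2 with 0.78 (exact p = 0.0227), Cyp46a1 with -0.75 (exact p = 0.0319) and the sterol transporter Abcg4 with -0.86 (exact p = 0.0056). Npc1 kept it whichever 1 sample was left out. Npc2 lost it without Mvp KO replicate 1 (r = 0.48, exact permutation p = 0.273), 2 or 4, Cyp46a1 without WT replicate 3 or Mvp KO replicates 1 or 2 (r = -0.70 without the latter), and Abcg4 without Mvp KO replicate 1 (r = -0.74). Npc1 was at 84.9 and 82.3 CPM in Mvp KO replicates 1 and 2 and at 52.4 CPM in WT replicate 4, its lowest.

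The median log2 fold change was 0.66 for the 12 myelin genes, -0.04 for 4 oligodendrocyte precursor markers, -0.12 for 8 astrocyte, -0.09 for 8 neuronal, -0.10 for 6 microglial and -0.07 for 6 endothelial markers, and -0.46 for the 10 neuronal activity genes. These medians were 0.53, -0.0041, -0.14, -0.01, -0.09, -0.15 and 0.35 without WT replicate 4. None of these genes had an adjusted p under 0.05 by edgeR, and 1, the astrocyte enzyme Aldoc, had an unadjusted p under 0.05 (0.0490 in edgeR's quasi-likelihood test, log2 fold change -0.17), where 1.56% of all genes had one. Aldoc without WT replicate 4 was at 0.0511 in that test, and Gja1, an astrocyte connexin, at 0.0396 and the activity gene Fosb at 0.0417. Without that sample 1.34% of all tested genes had an unadjusted p under 0.05, and 0 astrocyte or activity genes an adjusted one.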
